A study of Mus musculus with 31 samples.

Results

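Masseter muscle (MM), the large jaw-closing muscle, was compared between 3 mice at 1d post-CFA and the 3 vehicle-treated mice of the CFA experiment. These are 6 of the 31 libraries of the series, chosen by their labels. All were adult wild-type C57BL/6J male mice. Treated mice received complete Freund's adjuvant (CFA), mixed with phosphate-buffered saline (PBS), in the left MM, and the vehicle mice received PBS. The day on which MM of the vehicle mice was collected is not given in the sources used here, so the time since injection and the treatment cannot be told apart. Per the methods of the study, the dissected MM held its deep, middle and superficial parts, with tendons left out as far as possible. A stranded poly(A) library was made from the tissue of each mouse, although a label speaks of muscle cells, so a lower level of a transcript can stand for fewer cells of a type or for less RNA per cell, and these cannot be told apart. Of the 22609 gene symbols in the files, 13944 reached 10 counts in 3 or more of the 6 libraries and were tested.

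CFA is a suspension of heat-killed mycobacteria in mineral oil. Mycobacterial lipids and peptidoglycan are sensed by Toll-like receptors and C-type lectin receptors on tissue macrophages and stromal cells, which then release interleukin 1, tumour necrosis factor and chemokines. Chemokines of the CC family mainly draw monocytes and those of the CXC family with an ELR motif mainly draw neutrophils. Interleukin 6 and related cytokines signal through STAT3, which drives acute phase genes and its own inhibitor Socs3. Skeletal muscle fibres answer strain and damage with stress genes of the Z-disc and the I-band, and the tissue also holds fat cells, vessels and intramuscular nerve with its Schwann cells.

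Each value is given as CPM, the count of a gene scaled to the library size with edgeR's TMM factors, and the 3 values of a group stand in the order of mice 1, 2 and 3. A log2 fold change is that of treated over vehicle mice from edgeR, with its standard error.

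The promoters of 3 genes are shown first, because these genes stand for the chemokine, the STAT3 and the metal-binding responses among the genes called higher by DESeq2. Sequences are RefSeq's for build GRCm38.p6, 250 bases before to 50 bases after the start of the gene. Each was found once, letter for letter, in NCBIM37 (mm9), the build of the files, whose coordinates are given here. Cxcl2 lies on the plus strand and the window is chr5:91332675-91332974. Socs3 lies on the minus strand and the window is chr11:117830631-117830930. Mt2 lies on the plus strand and the window is chr8:96696268-96696567. Capitals mark matches to the kappaB consensus in Cxcl2, to the STAT palindrome TTCNNNGAA in Socs3 and to the metal response element core TGCNCNC in Mt2, each searched on both strands.
Cxcl2: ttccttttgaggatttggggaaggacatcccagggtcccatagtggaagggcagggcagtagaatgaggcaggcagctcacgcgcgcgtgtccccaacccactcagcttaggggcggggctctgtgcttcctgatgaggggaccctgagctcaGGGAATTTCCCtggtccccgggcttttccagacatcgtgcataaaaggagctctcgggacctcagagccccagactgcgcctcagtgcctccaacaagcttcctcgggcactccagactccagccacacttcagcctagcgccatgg
Socs3: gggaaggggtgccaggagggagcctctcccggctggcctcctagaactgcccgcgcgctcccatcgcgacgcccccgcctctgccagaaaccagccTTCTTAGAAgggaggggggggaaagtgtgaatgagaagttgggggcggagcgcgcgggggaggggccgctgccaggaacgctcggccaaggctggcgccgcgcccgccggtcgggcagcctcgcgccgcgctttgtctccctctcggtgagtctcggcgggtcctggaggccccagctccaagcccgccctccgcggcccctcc
Mt2: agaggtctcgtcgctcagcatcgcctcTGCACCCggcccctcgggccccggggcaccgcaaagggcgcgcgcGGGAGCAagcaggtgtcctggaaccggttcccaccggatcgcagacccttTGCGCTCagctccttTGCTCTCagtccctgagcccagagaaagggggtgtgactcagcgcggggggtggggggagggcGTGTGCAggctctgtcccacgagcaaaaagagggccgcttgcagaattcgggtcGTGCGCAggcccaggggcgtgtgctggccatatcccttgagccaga

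In Cxcl2 the capitals are 2 overlapping matches, 1 on each strand, which start 97 and 96 bases before the gene. In Socs3 the match starts 154 bases before RefSeq's start of the gene. The gene position given further below comes from another annotation and begins upstream of this window. By that position the Socs3 window and its match lie inside the gene. In Mt2 there were 6 matches, and 0.225% of the 32851 promoter windows in the table held at least as many. Windows of 1 chromosome and windows of another length had been left out beforehand. The kappaB consensus was present in 8.46% of the windows kept, the STAT palindrome in 8.3% and the metal response element core in 51.0%. Of the 46 genes called higher by DESeq2 at 1d post-CFA, 28 had a promoter window among those kept. The kappaB consensus was found in 4 of these 28 windows, the STAT palindrome in 4 and the metal response element core in 13. A match is only a string of letters in this window.

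The libraries held from 19282203 to 29076671 reads on genes, so that 10 counts are worth 0.344 to 0.519 CPM. Defining genes of fast skeletal muscle were abundant in every library. Ckm, the muscle creatine kinase, stood at 22830, 24980 and 16770 CPM in the treated and 36160, 39460 and 15630 CPM in the vehicle mice, and Atp2a1, the calcium pump of the fast sarcoplasmic reticulum, at 24500, 31980 and 19280 CPM and 43500, 43580 and 21780 CPM. Before the comparison, some libraries call for attention. Treated mouse 2 lay close to vehicle mice 1 and 2, with a Pearson's r of log2 CPM across genes of 0.967 and 0.974. Its r was 0.926 and 0.954 with treated mice 1 and 3, and 0.952 with vehicle mouse 3. Vehicle mouse 3 lay far from vehicle mice 1 and 2, with an r of 0.907 and 0.919, while these differed little from each other (0.980), and its nearest library was treated mouse 3 (0.956). Treated mouse 1 stood apart as well. Its nearest library was treated mouse 3 (0.943), and its r was 0.916, 0.9205 and 0.909 with vehicle mice 1, 2 and 3. These correlations are across genes, which are not independent replicates. No pair of the 465 pairs of libraries was identical.

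Markers of neighbouring tissues also differed between libraries rather than between groups. The 16 salivary gland markers in the files summed to 10110, 75.7 and 148 CPM in the treated mice and 133, 125 and 17200 CPM in the vehicle mice, with Amy1, the salivary amylase, at 3505, 52.6 and 61.6 CPM and 78.1, 64.7 and 6063 CPM. High sums thus occurred in treated mouse 1 and vehicle mouse 3. Genes of red cell precursors, granulocyte precursors and dividing cells, a list added after the values were seen, summed to 3.11, 84.1 and 402 CPM in the treated and 1.99, 3.57 and 475 CPM in the vehicle mice. They were high in vehicle mouse 3 and treated mouse 3, intermediate in treated mouse 2 and near 0 in the other libraries. Bone, cartilage and tendon markers summed to 382, 894 and 802 CPM and 129, 265 and 969.6 CPM. The adult globin genes were listed at 0 counts in all 6 libraries, except the row Beta-s at 4.203, 204 and 509.7 CPM and 22.4, 25.5 and 439.7 CPM. Beside the median of a list, its lowest and highest values when 1 library at a time was left out are given in brackets, with the library left out. The limit on counts was applied again to the remaining libraries, so the members behind such a median can differ. Cxcl2, for example, dropped out whenever a treated mouse was left out. The part of these tissues in the results was not tested.

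**Figure D1:**
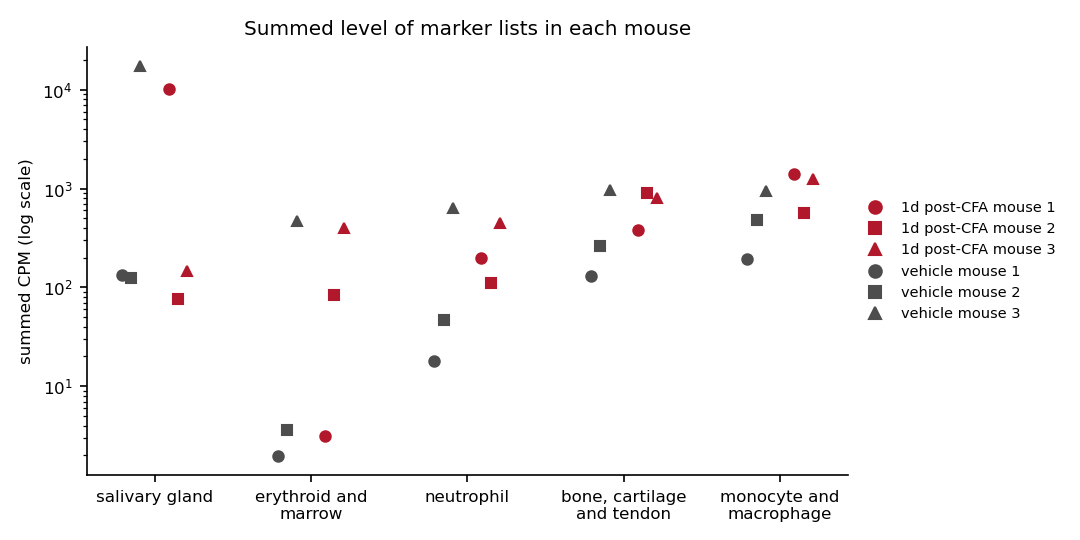
Summed CPM (log scale) of 5 marker lists in each of the 6 libraries. Red points are mice at 1d post-CFA and grey points vehicle mice, with the symbol giving the mouse. Salivary gland markers stand at 10110 and 17200 CPM in treated mouse 1 and vehicle mouse 3 and at 148 CPM or less in the other 4 libraries.

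With edgeR's quasi-likelihood test and Benjamini-Hochberg adjustment, no gene was called as a DEG at 1d post-CFA in either direction (0 of 13944 tested, 0.0% each way), where a call needed an adjusted p under 0.05 and a fold change over 2. The smallest adjusted p of edgeR was 0.924. Without adjustment of edgeR's p, as for every unadjusted p given here, 427 genes were higher (3.06%) and 161 lower (1.15%) at a p under 0.05. DESeq2, the tool of the study, called 46 genes higher (0.33%) and 8 lower (0.0574%) of the same 13944 genes with the same limits. It gave no adjusted p to 1138 of them, and those could not be called. The 3 treated mice all lay above the 3 vehicle mice in 2.83% of tested genes and all below in 3.46%. The median log2 fold change over all tested genes was -0.01. Counts of list members below are to be read beside these shares of all tested genes. The labels do not pair the mice, and a block by replicate number rests on a check of these same data. With that block, edgeR called 1 gene higher and 0 lower. It was Slfn4, an interferon-inducible gene of myeloid cells, at 16.8, 3.73 and 111 CPM against 0.779, 0.309 and 7.65 CPM, with vehicle mouse 3 above treated mouse 2 (log2 fold change 3.99 and adjusted p = 0.0415 with the block, edgeR). In the comparison without the block every edgeR adjusted p of a gene named here was 0.924 or more, so the genes below are described by their values, by DESeq2's adjusted p where it made a call and by whether the groups overlapped. Genes that DESeq2 did not call are given as values. Some genes were named after their values were seen, and their names are given with the methods.

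**Figure D2:**
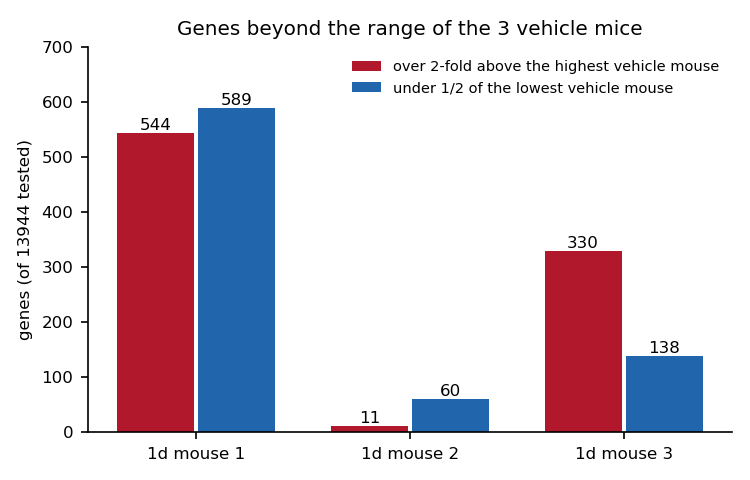
Number of the 13944 tested genes in which each treated mouse exceeded the highest vehicle mouse over 2-fold (red) or lay under 1/2 of the lowest vehicle mouse (blue). The counts are 544 and 589 in mouse 1, 11 and 60 in mouse 2, and 330 and 138 in mouse 3.

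Treated mouse 2 was the weak responder. Mouse 1 exceeded the highest vehicle mouse over 2-fold in 544 genes and mouse 3 in 330 genes, but mouse 2 in 11 genes. In 229 genes mice 1 and 3 both lay over 2-fold above every vehicle mouse, and mouse 2 was within the vehicle range in 142 of these, above it in 77 and below it in 10. Mice 2 and 3 were both that far above in 7 genes, with mouse 1 above the vehicle range in 6, and mice 1 and 2 in 8 genes, with mouse 3 above it in 7. Over the 46 genes called higher by DESeq2, the median log2 difference from the vehicle mean was 3.40 in mouse 1, 0.66 in mouse 2 and 2.81 in mouse 3. For the 8 genes called lower by DESeq2 the medians were -1.29, -1.32 and -1.32. Both sets of genes were chosen by the same values, so these medians are a description.

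The 11 genes in which mouse 2 itself exceeded every vehicle mouse over 2-fold included 4 chemokine genes (Ccl7, Ccl12, Cxcl2 and Cxcl13) and the acute phase genes Saa3 and Serpina3n. In contrast, other genes were far above the vehicle mice in mice 1 and 3 and at vehicle level in mouse 2. Rrad, a small GTPase that inhibits L-type calcium channels and was chosen for its values, stood at 1179, 5.97 and 1166 CPM against 3.31, 5.12 and 10.6 CPM. Clu (clusterin, a secreted chaperone) stood at 6369, 352 and 1289 CPM against 269.9, 360.2 and 121 CPM. In both genes mice 1 and 3 were far above, and mouse 2 lay inside, the vehicle range. Without treated mouse 2, edgeR called 19 genes higher and 0 lower, with Socs3 at the smallest adjusted p among them (edgeR, adjusted p = 0.00663). Without any other single library, edgeR called 0 genes in both directions. The 19 included the chemokine Ccl7, the metallothionein Mt2, the Toll-like receptor adaptor Myd88, the lectin receptor Clec4n, the macrophage gene Ms4a6d, the protease inhibitor Serpinb1a, the STAT3-linked genes Socs3 and Sbno2, and Ankrd10, Arid5a, Card14, Fam179a, Gm13889, Prkg1, Rrad, Tnfrsf12a, Tubb6 and Wfdc2.

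**Figure D3:**
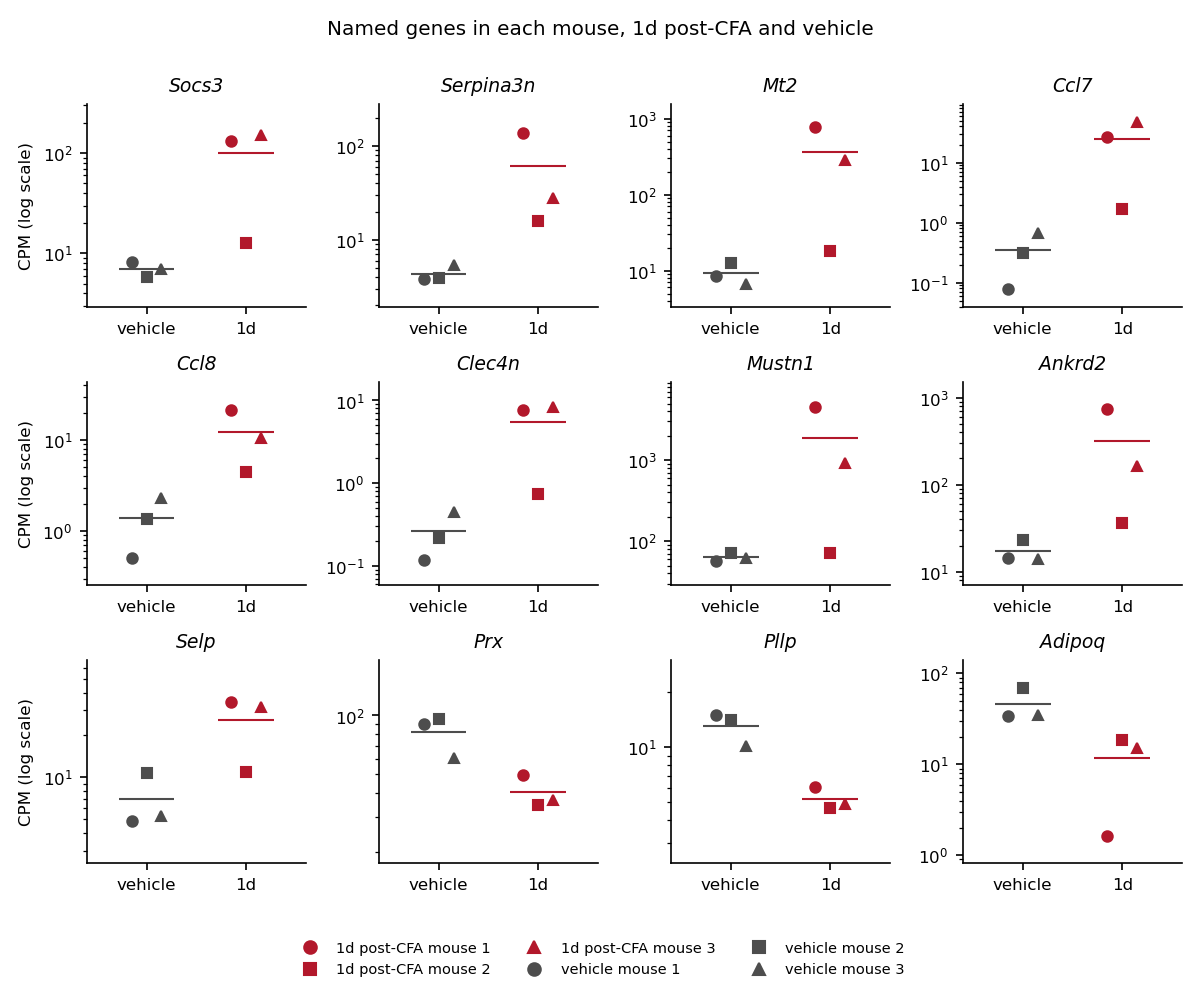
CPM (log scale) of 12 named genes in each mouse at 1d post-CFA (red) and after vehicle (grey), with the symbol giving the mouse and a bar at the group mean. Treated mouse 2 is the lowest treated mouse in Socs3 (12.7 CPM), Mt2 (18.4 CPM) and Mustn1 (72.4 CPM), whereas Prx and Pllp are low in all 3 treated mice.

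Chemokine ligands Ccl7, Ccl12 and Cxcl2 were among the 10 genes with the highest fold change and separate groups. Cxcl2 passed the limit on counts only through the treated mice, so its separate groups followed from that limit. Of 22 CC ligands, 10 had 3 counts or fewer in every vehicle mouse, and those among them that were tested passed in the same way. In all, 11 of the 22 had enough counts to be tested. Of these 11, 6 were higher and 0 lower at an unadjusted p under 0.05 (all genes: 3.06% and 1.15%). The groups did not overlap in 5 (2.83%), and the median log2 fold change was 2.60 (from 1.42 without treated mouse 1 to 2.997 without treated mouse 2). The list's mean log2(CPM + 0.5) was 3.44, 1.97 and 3.77 in the treated and 1.06, 1.62 and 1.72 in the vehicle mice, so all treated mice lay above all vehicle mice.

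Ccl8, a ligand that draws monocytes through several CC receptors, stood at 21.6, 4.48 and 10.6 CPM against 0.507, 1.37 and 2.33 CPM. All treated mice lay above the vehicle mice, with a log2 fold change of 3.12 ± 0.72 (DESeq2, adjusted p = 0.00226). The macrophage ligand Ccl6 stood at 198, 24.8 and 57.5 CPM against 10.2, 19.01 and 17.02 CPM, and Ccl9, its neighbour on chromosome 11, at 141, 19.9 and 67.4 CPM against 7.56, 16.4 and 17.02 CPM. The order of the treated mice was the same in both, with mouse 2 just above the highest vehicle mouse. Their log2 fold changes were 2.60 ± 0.72 and 2.48 ± 0.67 (DESeq2, adjusted p = 0.0129 and 0.014). Ccl6 overlaps an RNA gene on the other strand, and the strand setting of the counting is not given in the sources used here.

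Among ELR chemokines, Cxcl2 had 1003, 12 and 178 counts in the treated mice and 0, 1 and 0 in the vehicle mice, and its near relative Cxcl3 192, 1 and 54 and 0, 0 and 0. Against a floor of 3 counts per library, the mean CPM of Cxcl3 was at least 27.5-fold higher in the treated mice, although mouse 2 had only 1 count. DESeq2 called Cxcl2 (adjusted p = 0.00226), and Cxcl3 had too few libraries with counts to be tested. The 2 genes share 3.33% of the 50-base windows of Cxcl2, so reads in those windows can have been left out of both. Cxcl13, which draws B cells, stood at 10.8, 1.76 and 1.397 CPM against 0.351, 0.794 and 0.862 CPM. Here the treated mice were again above the vehicle mice, but mouse 1 alone was far above them. Cxcl10, an interferon-induced ligand of Cxcr3, had 6.46, 0.176 and 45.5 CPM against 0.234, 0.265 and 0.712 CPM, with mouse 2 below all vehicle mice. It overlaps Art3 on the other strand. Of the 12 tested CXC and CX3C ligands, 4 were higher and 0 lower at an unadjusted p under 0.05 (all genes: 3.06% and 1.15%). Their median log2 fold change was 0.64 (from 0.18 without treated mouse 1 to 1.16 without vehicle mouse 3).

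Chemokine receptors sit on the cells that these ligands draw. Of 10 tested receptors, 3 were higher at an unadjusted p under 0.05 (all genes: 3.06%). None had separate groups (all genes: 2.83% higher and 3.46% lower). Ccr1, a receptor of monocytes and neutrophils, stood at 19.96, 1.98 and 15.5 CPM against 0.3897, 0.441 and 5.14 CPM, and vehicle mouse 3 was above treated mouse 2. The median log2 fold change of the receptors was 0.48 (from 0.11 without vehicle mouse 1 to 1.77 without vehicle mouse 3).

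Acute phase genes are secreted defence and transport proteins, and this list also holds the metal-binding proteins that follow them. Of 15 tested members, 10 were higher and 0 lower at an unadjusted p under 0.05 (all genes: 3.06% and 1.15%). The groups were separate in 6, all of them higher (2.83%). The median log2 fold change was 1.51 (from 0.68 without treated mouse 1 to 1.76 without treated mouse 3). The list's mean log2(CPM + 0.5) was 6.87, 4.31 and 5.76 in the treated mice against 3.53, 3.998 and 4.14 in the vehicle mice. The 3 treated mice were above the vehicle mice, in the order 1, 3 and 2.

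Serpina3n (chr12:105644939-105652539), a secreted inhibitor of serine proteases, stood at 139.5, 15.7 and 28.2 CPM against 3.82, 3.88 and 5.32 CPM. Even the weak responder was over 2-fold above the vehicle mice here, and the log2 fold change was 3.81 ± 0.81 (DESeq2, adjusted p = 4.61e-05). It shares 6.75% of its 50-base windows with other Serpina3 genes, whose reads the counting can have left out. Mt2 (chr8:96696518-96697467), a metallothionein that binds zinc and copper, stood at 774, 18.4 and 287 CPM against 8.46, 12.7 and 6.599 CPM. Mice 1 and 3 were far above the vehicle mice and mouse 2 was just above them, with a log2 fold change of 5.28 ± 1.19 (DESeq2, adjusted p = 0.00677). Mt1, its neighbour, stood at 687, 23.8 and 209 CPM against 21.7, 25.8 and 14.96 CPM, and mouse 2 was inside the vehicle range. Slc39a14, the zinc importer of the acute phase, stood at 200.4, 30.3 and 48.1 CPM against 37.5, 30.3 and 26.6 CPM, again with mouse 2 inside the vehicle range.

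Hmox1, which degrades haem, stood at 242, 30.8 and 69.2 CPM against 23.3, 23.1 and 21.4 CPM, with separate groups and a log2 fold change of 2.34 ± 0.68 (DESeq2, adjusted p = 0.03). Slc7a11, the cystine importer, was chosen for its values and stood at 9.18, 1.01 and 4.14 CPM against 0.312, 0.221 and 1.01 CPM. Its mouse 2 was level with vehicle mouse 3, and the log2 fold change was 3.19 ± 0.91 (DESeq2, adjusted p = 0.0405). Lcn2, a siderophore-binding protein made by neutrophils and inflamed tissue, stood at 54.1, 5.93 and 60.3 CPM against 0.429, 1.01 and 54.1 CPM, and vehicle mouse 3 was level with treated mouse 1.

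In the interleukin 6 and STAT3 list, Socs3 (chr11:117827393-117831361), the feedback inhibitor of this pathway, stood at 133, 12.7 and 153 CPM against 8.18, 5.82 and 6.94 CPM. All treated mice were above the vehicle mice, with mouse 2 nearest to them, and the log2 fold change was 3.83 ± 0.82 (DESeq2, adjusted p = 4.61e-05). Stat3 itself stood at 634, 134 and 338 CPM against 126, 100 and 98.9 CPM, with separate groups and mouse 2 close to vehicle mouse 1 (log2 fold change 1.77 ± 0.51, DESeq2, adjusted p = 0.0469). Stat3 overlaps Stat5a on the other strand. Bcl3, a nuclear I-kappaB protein, stood at 14.1, 4.96 and 18.1 CPM against 2.46, 3.79 and 3.52 CPM, and its groups were separate (log2 fold change 1.92 ± 0.48, DESeq2, adjusted p = 0.0342).

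The receptor chain Osmr stood at 50.9, 28.7 and 48.7 CPM against 20.1, 23.9 and 23.6 CPM, with separate groups, a smaller log2 fold change of 0.93 ± 0.25 and no call by DESeq2. Its ligand Osm, made by myeloid cells, stood at 4.98, 0.0878 and 4.24 CPM against 0.03897, 0 and 0.562 CPM, with vehicle mouse 3 above treated mouse 2. Sbno2, a transcriptional regulator that STAT3 induces and that was chosen for its values, stood at 251.0, 37.5 and 213 CPM against 32.9, 28.2 and 23.5 CPM, with separate groups (log2 fold change 2.57 ± 0.63, DESeq2, adjusted p = 0.00278). In all, 5 of 16 tested members were higher and 0 lower at an unadjusted p under 0.05 (all genes: 3.06% and 1.15%). The median log2 fold change was 0.38 (from 0.29 without treated mouse 3 to 0.62 without vehicle mouse 1).

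In the interleukin 1 and inflammasome list, 9 of 17 tested genes were higher and none lower at an unadjusted p under 0.05 (all genes: 3.06% and 1.15%). All 17 had a log2 fold change above 0 (all genes: 48.2%), with a median of 1.20 (from 0.79 without treated mouse 1 to 1.47 without treated mouse 2). The receptor Il1r1 stood at 50.7, 30.4 and 32.1 CPM against 20.1, 20.1 and 21.8 CPM, with separate groups but a log2 fold change of only 0.87 ± 0.24. Casp4, the caspase that senses intracellular lipopolysaccharide, stood at 13.3, 2.68 and 8.15 CPM against 1.87, 2.03 and 1.8 CPM and was also separate. Mefv, which encodes the inflammasome sensor pyrin, stood at 5.95, 0.834 and 6.802 CPM against 0.0779, 0.0441 and 0.787 CPM, where mouse 2 was just above vehicle mouse 3 (log2 fold change 3.86 ± 1.15, DESeq2, adjusted p = 0.0405). The receptor antagonist Il1rn and the decoy receptor Il1r2, both of which block the cytokine, stood at 30.7, 0.527 and 45.95 and 8.52, 0.878 and 2.57 CPM against 0.117, 0.132 and 1.8 and 0.351, 0.661 and 1.39 CPM. In both genes mouse 2 was below vehicle mouse 3.

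Sensors and adaptors of innate recognition followed. Of 19 tested genes of Toll-like receptors and their adaptors 6 were higher at an unadjusted p under 0.05 and none lower (all genes: 3.06% and 1.15%). Their median log2 fold change was 0.84 (from 0.45 without vehicle mouse 1 to 1.33 without vehicle mouse 3). Of 15 genes of the C-type lectin and CARD9 list 6 were higher and none lower at this limit (all genes: 3.06% and 1.15%). Their median was 1.63 (from 1.23 without vehicle mouse 1 to 2.64 without vehicle mouse 3). Clec4n (dectin-2), which binds mannose-rich glycans of mycobacteria and fungi, stood at 7.67, 0.747 and 8.29 CPM against 0.117, 0.221 and 0.4499 CPM. All treated mice were above the vehicle mice, with a log2 fold change of 4.37 ± 0.97 (DESeq2, adjusted p = 0.00108). Clec4e (mincle), the receptor of the mycobacterial glycolipid trehalose dimycolate, stood at 16.4, 0.483 and 17.97 CPM against 0.117, 0.0882 and 0.8999 CPM, and Clec4d, its partner, at 21.5, 0.922 and 15.5 CPM against 0.03897, 0.309 and 1.46 CPM. In these 2 genes vehicle mouse 3 was above treated mouse 2.

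The adaptor Card9 stood at 3.66, 1.19 and 2.43 CPM against 0.468, 0.441 and 1.27 CPM, and the adaptor Myd88 at 56.9, 12.7 and 48.8 CPM against 13.1, 13.9 and 15.7 CPM. Mouse 2 was inside the vehicle range for Card9 and below all vehicle mice for Myd88, which overlaps Acaa1a on the other strand. The lipopolysaccharide co-receptor Cd14 stood at 41.2, 2.77 and 14.1 CPM against 2.53, 4.41 and 4.16 CPM, and Lbp, which hands lipid to it, at 82.5, 20.6 and 21.3 CPM against 10.4, 17.1 and 16.2 CPM. For Lbp the treated mice were all above the vehicle mice, and for Cd14 mouse 2 was within their range. Of the 5 Fc gamma receptors, 3 were higher at an unadjusted p under 0.05 (all genes: 3.06%). Fcgr4 stood at 6.69, 0.615 and 3.56 CPM against 0.117, 0.353 and 1.2 CPM, with vehicle mouse 3 above mouse 2.

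The TNF and NF-kB list holds genes that the pathway induces, among them its own inhibitors. Of 24 tested members 10 were higher and 0 lower at an unadjusted p under 0.05 (all genes: 3.06% and 1.15%). The groups were separate in 4, all of them higher (2.83%). The median log2 fold change was 0.82 (from 0.43 without treated mouse 1 to 1.17 without treated mouse 2). Map3k8, a kinase downstream of Toll-like receptors, stood at 12.5, 5.49 and 9.87 CPM against 3, 3.13 and 4.57 CPM, and Birc3, an inhibitor of cell death, at 19.4, 13.3 and 18.6 CPM against 10.8, 11.6 and 12.1 CPM. In both, the treated mice were above all vehicle mice with log2 fold changes of 1.38 ± 0.38 and 0.57 ± 0.22. Nfkbid stood at 3.58, 0.659 and 3.29 CPM against 0.507, 0.353 and 0.825 CPM, where mouse 2 was inside the vehicle range.

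The markers of infiltrating cells depended on the library of vehicle mouse 3. The 19 neutrophil markers in the files summed to 199, 111 and 452 CPM in the treated and 17.9, 46.9 and 635 CPM in the vehicle mice, with S100a8 at 33.5, 14.01 and 110.2 CPM and 0.3897, 0.7496 and 158 CPM. Vehicle mouse 3 had the highest sum of all 6 mice, while each treated mouse exceeded vehicle mice 1 and 2. Over the 14 tested markers the median log2 fold change was 0.30 (from -0.23 without vehicle mouse 1 to 4.77 without vehicle mouse 3, and below 0 without treated mouse 3, vehicle mouse 1 or vehicle mouse 2). Granule genes of marrow precursors moved with the neutrophil markers in some libraries and not in others: Ngp stood at 0.0778, 17.2 and 161 CPM against 0.351, 0.617 and 170.3 CPM and Mpo at 0.156, 5.53 and 29.3 CPM against 0.0779, 0.0441 and 54.5 CPM. Treated mouse 1 thus had S100a8 at 33.5 CPM with Ngp at 0.0778 CPM, whereas treated mouse 3 and vehicle mouse 3 had both. The part of marrow-derived RNA in the neutrophil sums of these mice was not tested.

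Monocyte and macrophage markers summed to 1395, 562 and 1245 CPM in the treated and 192, 477 and 939.6 CPM in the vehicle mice. The groups overlapped, as mouse 2 was below vehicle mouse 3. Of 30 tested markers 9 were higher and none lower at an unadjusted p under 0.05 (all genes: 3.06% and 1.15%). A log2 fold change above 0 was found in 27 (48.2%), and the median was 1.39 (from 0.99 without vehicle mouse 1 to 2.58 without vehicle mouse 3). Ms4a6d, a macrophage membrane protein chosen for its values, stood at 24.8, 3.12 and 25.9 CPM against 0.701, 1.68 and 2.48 CPM with separate groups (log2 fold change 3.47 ± 0.82, DESeq2, adjusted p = 0.00173). Arg1, the arginase of alternatively activated and wound macrophages, stood at 48.02, 0.878 and 32.98 CPM against 0.429, 0.132 and 4.42 CPM, and Ms4a4c, a monocyte gene, at 6.304, 0.615 and 24.8 CPM against 0.03897, 0.0882 and 1.05 CPM. Treated mouse 2 lay below vehicle mouse 3 in both.

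Of the other leukocytes, 6 of 19 T, NK and B cell markers could be tested and none had an unadjusted p under 0.05 (all genes: 3.06% higher and 1.15% lower). The B cell gene Cd79b stood at 0.195, 1.14 and 3.74 CPM against 0.195, 0.485 and 8.89 CPM, highest in vehicle mouse 3. None of 12 tested dendritic cell and MHC class II genes had an unadjusted p under 0.05 either (all genes: 3.06% higher and 1.15% lower). Their median log2 fold change was 0.25 (from -0.06 without vehicle mouse 1 to 0.68 without vehicle mouse 3). On vessels, Selp, the P-selectin that starts leukocyte rolling, stood at 34.2, 10.9 and 31.9 CPM against 4.87, 10.7 and 5.29 CPM, where mouse 2 (10.9 CPM) and vehicle mouse 2 (10.7 CPM) nearly touched. Its log2 fold change was 1.88 ± 0.50 (DESeq2, adjusted p = 0.0413). The median of 17 endothelial markers was 0.02 (from -0.15 without vehicle mouse 3 to 0.23 without vehicle mouse 2, and below 0 without vehicle mouse 1 or vehicle mouse 3). None of the 17 had an unadjusted p under 0.05 (all genes: 3.06% higher and 1.15% lower).

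Interferon-stimulated genes set treated mouse 3 apart. The mean log2(CPM + 0.5) of 33 tested genes was 3.35, 3.18 and 4.80 in the treated mice against 2.59, 3.06 and 3.06 in the vehicle mice. Mouse 3 was clearly highest, and mice 1 and 2 were only a little above the vehicle mice. All 33 had a log2 fold change above 0 (all genes: 48.2%) and 14 were higher at an unadjusted p under 0.05 (3.06%). The groups were separate in 8, all of them higher (2.83%). The median was 0.85 (from 0.34 without treated mouse 3 to 1.13 without treated mouse 2). The ubiquitin-like Isg15 stood at 9.18, 5.66 and 37.2 CPM against 3.702, 4.45 and 3.67 CPM and the antiviral Mx1 at 3.46, 0.395 and 17.5 CPM against 0.117, 0.221 and 0.787 CPM. The nucleic acid sensor Zbp1 stood at 10.6, 1.76 and 20.8 CPM against 0.429, 1.59 and 1.24 CPM, with separate groups (log2 fold change 3.35 ± 0.89, DESeq2, adjusted p = 0.00872).

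Genes that degrade matrix or form provisional matrix had a mean log2(CPM + 0.5) of 4.81, 4.25 and 5.33 in the treated mice against 2.83, 3.61 and 4.85 in the vehicle mice, and vehicle mouse 3 was level with treated mouse 1. Of 32 tested members 9 were higher and none lower at an unadjusted p under 0.05 (all genes: 3.06% and 1.15%). The median log2 fold change was 0.89 (from 0.57 without treated mouse 3 to 2.13 without vehicle mouse 3). Mmp3, stromelysin, stood at 33.6, 2.15 and 3.56 CPM against 0.507, 0.661 and 1.65 CPM with separate groups and mouse 1 far above the others (log2 fold change 3.79 ± 1.12, DESeq2, adjusted p = 0.0117). Adamts4, a protease of aggrecan and versican, stood at 15.9, 1.71 and 16.6 CPM against 0.974, 1.01 and 3.08 CPM, and Timp1, an inhibitor of metalloproteases that overlaps Syn1 on the other strand, at 49.5, 2.898 and 48.7 CPM against 0.351, 1.76 and 7.499 CPM. In these 2 genes vehicle mouse 3 was above treated mouse 2. None of 16 collagens had an unadjusted p under 0.05 (all genes: 3.06% higher and 1.15% lower). Their median was 0.27 (from -0.20 without vehicle mouse 1 to 0.57 without vehicle mouse 3, and below 0 without treated mouse 3 or vehicle mouse 1).

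**Figure D4:**
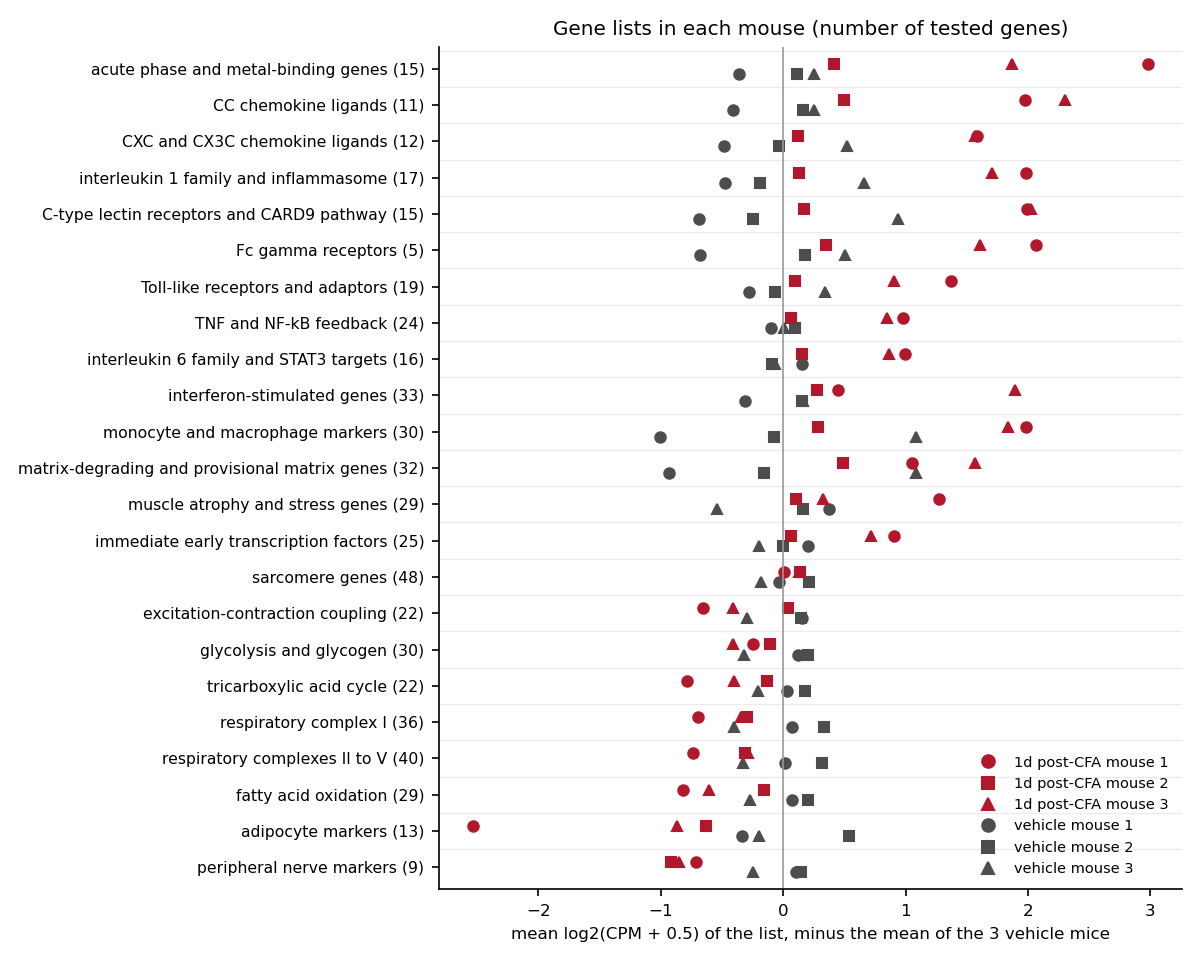
Mean log2(CPM + 0.5) of 23 gene lists in each mouse, as the difference from the mean of the 3 vehicle mice, with the number of tested genes in brackets. Treated mouse 2 (red squares) lies near the vehicle mice in most immune lists, while in the peripheral nerve list all 3 treated mice lie below all vehicle mice.

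Genes of muscle fibre stress had large differences in abundance. The 5 genes with the largest excess of mean CPM in the treated mice were Flnc, Clu, Mustn1, Hspb7 and Ankrd23. Flnc (filamin C), which crosslinks actin at the Z-disc, stood at 8326, 1224 and 3489 CPM against 1354, 1236 and 911 CPM, with mouse 2 inside the vehicle range. Hspb7, a small heat shock protein of muscle, stood at 4850, 697 and 1962 CPM against 446, 544 and 577 CPM, where even mouse 2 was above the vehicle mice (log2 fold change 2.26 ± 0.64, DESeq2, adjusted p = 0.0167). Mustn1, a small nuclear protein of muscle and skeleton, stood at 4568, 72.4 and 914 CPM against 57.2, 71.9 and 62.4 CPM. Mouse 2, at 72.4 CPM, exceeded the highest vehicle mouse (71.9 CPM) by less than the spread between the vehicle mice, while mouse 1 was the highest (log2 fold change 4.86 ± 1.28, DESeq2, adjusted p = 0.0426).

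The muscle ankyrin repeat proteins, which bind titin in the I-band and respond to stretch, were higher in mice 1 and 3. Ankrd2 stood at 748, 36.1 and 164 CPM against 14.3, 23.1 and 14.02 CPM, with all treated mice above the vehicle mice (log2 fold change 4.21 ± 1.01, DESeq2, adjusted p = 0.0342). Ankrd1 stood at 133, 0.527 and 31.7 CPM against 0.0779, 0.441 and 1.2 CPM, and here mouse 2 was inside the vehicle range (log2 fold change 6.56 ± 1.76, DESeq2, adjusted p = 0.0349). The other member, Ankrd23, was already abundant in vehicle mice and stood at 5871, 1802 and 2939 CPM against 2069, 2000 and 1458 CPM, with mouse 2 inside the vehicle range and no call by DESeq2. Csrp3, the muscle LIM protein of the Z-disc, stood at 694, 116 and 398 CPM against 24.5, 81.5 and 119 CPM (log2 fold change 2.43 ± 0.75, DESeq2, adjusted p = 0.0342), with mouse 2 below vehicle mouse 3. Of 48 sarcomere genes 5 were higher and 1 lower at an unadjusted p under 0.05 (all genes: 3.06% and 1.15%). Their median was -0.17 (from -0.26 without treated mouse 2 to 0.02 without treated mouse 1).

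Gadd45a, a stress gene of denervated and damaged muscle, stood at 261, 25.7 and 87.3 CPM against 25.02, 23.99 and 12.04 CPM, where mouse 2 was just above vehicle mouse 1 (log2 fold change 2.62 ± 0.77, DESeq2, adjusted p = 0.0223). It overlaps an RNA gene on the other strand. The cell cycle inhibitor Cdkn1a stood at 178, 53.4 and 329 CPM against 69.8, 62.7 and 69.3 CPM, with mouse 2 below every vehicle mouse. Card14, a scaffold protein upstream of NF-kB, stood at 52.9, 2.24 and 18.6 CPM against 1.52, 1.32 and 1.31 CPM with separate groups (log2 fold change 4.14 ± 0.99, DESeq2, adjusted p = 0.000349), and overlaps Sgsh on the other strand. Of 29 atrophy and stress genes 6 were higher and none lower at an unadjusted p under 0.05 (all genes: 3.06% and 1.15%). The 6 included Mt2, which had the highest log2 fold change of the list (5.28) and is given above with the acute phase and metal-binding genes. The median of the 29 genes was 0.54 (from 0.03 without treated mouse 1 to 0.77 without treated mouse 2). No satellite cell or myogenic regulator had an unadjusted p under 0.05 (all genes: 3.06% higher and 1.15% lower). Pax7, which marks satellite cells, stood at 1.83, 2.503 and 2.12 CPM against 3.51, 4.19 and 2.85 CPM, all treated mice below the vehicle mice.

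The most abundant fast-fibre genes were lower in mean, but vehicle mouse 3 was as low as the treated mice. The 5 genes with the largest deficit of mean CPM in the treated mice were Atp2a1, Ckm, Myh4, Acta1 and Pvalb. Pvalb, the calcium buffer of fast fibres, stood at 6733, 10060 and 6880 CPM against 14300, 15590 and 7219 CPM, and Myh4, the fast myosin heavy chain 2B, at 19290, 17800 and 10040 CPM against 35240, 22450 and 13820 CPM. In both genes the groups overlapped through vehicle mouse 3, and neither was called by DESeq2. Of 22 excitation-contraction genes 20 had a log2 fold change below 0 (all genes: 51.8%), with a median of -0.44 (from -0.69 without treated mouse 2 to -0.27 without treated mouse 1). The exception with a small p was Sln (sarcolipin), an inhibitor of the calcium pump Atp2a1, at 2.33, 1.05 and 2.93 CPM against 0.623, 0.309 and 1.01 CPM, where all treated mice were above the vehicle mice but the level was low.

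Genes of energy metabolism had log2 fold changes mostly below 0, but in the means of these lists vehicle mouse 3 was below treated mouse 2. All 22 genes of the tricarboxylic acid cycle had a log2 fold change below 0 (51.8% of all genes) and 4 had separate groups (3.46% of all genes). Their median was -0.43 (from -0.59 without treated mouse 2 to -0.28 without treated mouse 1). Fatty acid oxidation had the most members with a small p among the metabolic lists, 6 of 29, all lower (all genes: 1.15%). In 6 the groups were separate, all lower (3.46%), and the median was -0.55 (from -0.76 without treated mouse 2 to -0.38 without treated mouse 1). Acaa2, which catalyses the last step of mitochondrial beta-oxidation, stood at 64.8, 136 and 106 CPM against 177, 232 and 144 CPM, and Hsd17b10 at 47.01, 48.9 and 50.4 CPM against 70.6, 87.9 and 53.9 CPM. For both, all treated mice were below all vehicle mice, by a log2 fold change of -0.85 ± 0.32 and -0.54 ± 0.22. Ldhb, the heart form of lactate dehydrogenase, stood at 12.9, 47.3 and 36.2 CPM against 48.4, 89.2 and 59.4 CPM and was separate as well. DESeq2 called none of the genes of these lists. Glycolysis had 22 of 30 genes below 0 (all genes: 51.8%) and a median of -0.41 (from -0.68 without vehicle mouse 3 to -0.27 without vehicle mouse 1).

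Fat cell markers had a mean log2(CPM + 0.5) of 2.54, 4.44 and 4.21 in the treated mice against 4.74, 5.61 and 4.88 in the vehicle mice, so the groups were separate. The 13 tested markers all had a log2 fold change below 0 (all genes: 51.8%) and a median of -1.34 (from -1.84 without treated mouse 2 to -0.78 without treated mouse 1). Of these, 5 were lower at an unadjusted p under 0.05 (all genes: 1.15%), and DESeq2 called none. Adipoq (adiponectin) stood at 1.63, 18.6 and 15.1 CPM against 34.1, 69.8 and 34.7 CPM, Retn (resistin) at 0.428, 4.96 and 1.49 CPM against 7.17, 20.4 and 6.37 CPM and Plin1 (perilipin, which coats lipid droplets) at 0.506, 5.18 and 4.68 CPM against 7.05, 15.8 and 14.6 CPM. In all 3 the treated mice were below the vehicle mice, with mouse 1 lowest. The log2 fold changes were -1.97 ± 0.76, -2.30 ± 0.86 and -1.85 ± 0.75. How much fat was dissected with the muscle was not measured. Among the genes with the lowest fold changes and separate groups, Mrap, the melanocortin receptor accessory protein of fat and adrenal cells, stood at 0.428, 2.02 and 2.12 CPM against 2.299, 6.17 and 6.75 CPM.

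The genes of peripheral nerve had a lower list mean in each treated mouse, mouse 2 included, than in any vehicle mouse. Myelinating Schwann cells wrap motor and sensory axons in the muscle, and their myelin is built from a small set of abundant proteins. Of the 9 tested nerve markers 8 were lower at an unadjusted p under 0.05 and none higher (all genes: 1.15% and 3.06%), and in 8 all treated mice were below all vehicle mice (3.46%). The median log2 fold change was -0.86 (from -0.98 without vehicle mouse 3 to -0.73 without vehicle mouse 2). The list's mean log2(CPM + 0.5) was 5.15, 4.95 and 5.02 in the treated mice against 5.97, 6.01 and 5.61 in the vehicle mice, with mouse 2 the lowest of the 6.

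Pllp (plasmolipin; chr8:97198795-97220142), a myelin membrane protein, stood at 6.03, 4.65 and 4.87 CPM against 14.9, 13.98 and 10.2 CPM, with separate groups and a log2 fold change of -1.33 ± 0.26 (DESeq2, adjusted p = 0.00764). Prx (periaxin) stood at 49.3, 34.95 and 36.98 CPM against 90.3, 95.9 and 60.6 CPM, Pmp22 at 150.3, 101 and 134 CPM against 236, 260.3 and 195 CPM and Mbp (myelin basic protein) at 146, 132 and 110.4 CPM against 263, 274 and 166 CPM. Cnp, an enzyme of myelin that overlaps Dnajc7 on the other strand, stood at 31.7, 33.2 and 31.1 CPM against 50.7, 51.8 and 42.5 CPM. These 4 genes were not called by DESeq2, and in each the treated mice were below the vehicle mice.

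S100b, a calcium-binding protein of Schwann cells, stood at 9.53, 10.9 and 10.6 CPM against 19.5, 21.6 and 17.2 CPM, with a log2 fold change of -0.91 ± 0.19. Its groups were separate with a fold under 2 (DESeq2, adjusted p = 0.0405), and it overlaps Dip2a on the other strand. The Schwann cell transcription factor Sox10 stood at 7.36, 5.75 and 8.38 CPM against 9.23, 12.3 and 12.97 CPM.

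**Figure D5:**
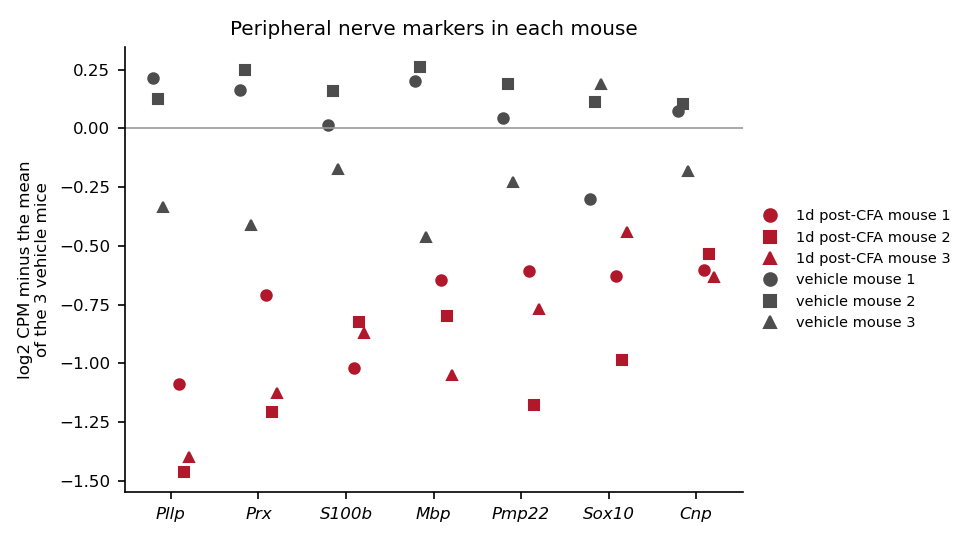
Log2 CPM of 7 nerve markers in each mouse, as the difference from the mean of the 3 vehicle mice. In all 7 genes shown the 3 treated mice (red) lie below all vehicle mice (grey).

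To see whether the nerve genes outside the list were alike, 2 lists were added after the values were seen, so their counts are a description. Of 16 further genes of myelinating Schwann cells, 15 had a log2 fold change below 0 (all genes: 51.8%). The groups were separate in 8, all of them lower (3.46%), and the median was -0.52 (from -0.68 without treated mouse 1 to -0.50 without vehicle mouse 1). Dusp15 stood at 2.14, 1.58 and 2.297 CPM against 7.13, 5.69 and 4.499 CPM (log2 fold change -1.52 ± 0.34, DESeq2, adjusted p = 0.03), Mal at 15.99, 15.3 and 19.3 CPM against 34.95, 31.5 and 25.8 CPM and Ugt8a, which makes the galactolipids of myelin, at 4.903, 4.13 and 6.26 CPM against 11.3, 9.83 and 9.898 CPM. Of 11 tested genes of non-myelinating and injury-activated Schwann cells, 5 were above 0 and 6 below. Ngfr, which denervated Schwann cells express, stood at 3.42, 5.58 and 2.84 CPM against 5.53, 4.81 and 4.87 CPM, and Jun, which drives their repair state, at 153, 167 and 182 CPM against 218, 165 and 150.5 CPM. Both overlapped between groups.

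Further genes called lower by DESeq2 were not nerve markers. Cdo1, which oxidizes cysteine, stood at 5.99, 13.4 and 11.8 CPM against 22.1, 38.9 and 32.6 CPM, Pon1 (paraoxonase) at 3.97, 3.996 and 3.65 CPM against 8.49, 15.04 and 7.91 CPM and Ddn (dendrin) at 1.83, 1.76 and 1.94 CPM against 7.17, 4.98 and 4.39 CPM. The RNA gene A330049M08Rik had the smallest unadjusted p of edgeR and stood at 5.25, 5.58 and 5.18 CPM against 17.2, 15.9 and 10.5 CPM (log2 fold change -1.44 ± 0.26, DESeq2, adjusted p = 0.00251). Odf3l2 stood at 3.54, 12.7 and 1.85 CPM against 54.7, 22.4 and 20.4 CPM. In all 5 the groups were separate.

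Mediators linked to pain include prostaglandin enzymes and growth factors. Of 23 tested genes 6 were higher and none lower at an unadjusted p under 0.05 (all genes: 3.06% and 1.15%). Their median was 0.27 (from -0.02 without vehicle mouse 1 to 0.53 without vehicle mouse 3). Ptgs2, the inducible enzyme of prostaglandin synthesis, stood at 6.81, 0.527 and 2.61 CPM against 0.3897, 0.132 and 0.675 CPM, and Csf1, the growth factor of macrophages, at 61.05, 49 and 67.3 CPM against 28.6, 47.01 and 31.2 CPM. Mouse 2 was inside the vehicle range for Ptgs2, and for Csf1 all treated mice were above, by a log2 fold change of 0.73 ± 0.25. Csf3, the granulocyte growth factor, had 62, 1 and 31 counts in the treated mice and 0, 0 and 0 in the vehicle mice, so the mean was at least 10.7-fold higher than the floor of 3 counts per library, with 1 count in mouse 2.

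Among immediate early transcription factors 7 of 25 were higher at an unadjusted p under 0.05 (all genes: 3.06%). The groups were separate in 4, all of them higher (2.83%), and DESeq2 called none. Myc stood at 34.4, 10.98 and 20.9 CPM against 8.03, 9.74 and 8.59 CPM and Fosl2 at 81.7, 47.1 and 61 CPM against 34.5, 37.6 and 38.02 CPM, with all treated mice above. The stress factor Atf3 stood at 129, 5.93 and 24.4 CPM against 4.36, 7.14 and 7.16 CPM, with mouse 2 inside the vehicle range. None of 19 clock genes had an unadjusted p under 0.05 (all genes: 3.06% higher and 1.15% lower). Their median log2 fold change was -0.16 (from -0.40 without vehicle mouse 3 to -0.06 without treated mouse 3).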

How the data were processed

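RNA-seq of MM was compared between 3 mice at 1d post-CFA and 3 vehicle mice, with 1 library per mouse. The deposited files hold raw counts per gene symbol, which the authors made by aligning reads to mm9 with TopHat2 and, per the submitters' processing notes, HTSeq. The annotation and the strand setting are not given in the sources used here. The closing lines of each file (reads without a gene, ambiguous or not unique) held 47.9% to 52.9% of reads and were left out of library sizes. Genes that reached 10 counts in 3 or more of the 6 libraries were tested with edgeR's quasi-likelihood test (4.0.16, R 4.3.3) on TMM-scaled counts, over these 6 libraries, with calls at a Benjamini-Hochberg adjusted p under 0.05 and a fold over 2. DESeq2 (1.42.0), limma voom (3.58.1) and other alternatives are given in the closing section. The p-values measure the spread between these mice. Counts at or under 3 in a library are a floor that covers counting error only.

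Both groups carry the numbers 1 to 3. Deviations from the group means of same-numbered mice correlated at 0.179, 0.246 and 0.601 across genes, so the numbers were also fitted as a block. The labels name different mice, so the pairing comes from this check alone. Treated mouse 2 correlated better with vehicle mouse 1 (0.267) than did treated mouse 1.

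The comparison, the members and the gene lists were chosen with earlier results of these data known. Named were the genes with the 10 highest and 10 lowest fold changes among separate groups with a mean of at least 1 CPM, up to 4 members of each list by unadjusted p, members at the floor in all vehicle mice, the 5 genes of smallest DESeq2 adjusted p and the 5 of largest mean CPM difference in each direction. The following were named after their values were seen: Adamts4, Ankrd10, Arg1, Arid5a, Birc3, Ccl6, Cdkn1a, Cnp, Dusp15, Fam179a, Gm13889, Hmox1, Il1rn, Isg15, Jun, Lbp, Mal, Mbp, Ms4a6d, Mx1, Ngfr, Ngp, Osm, Pmp22, Pon1, Prkg1, Rrad, S100a8, Sbno2, Serpinb1a, Slc39a14, Slc7a11, Slfn4, Sox10, Timp1, Tnfrsf12a, Tubb6, Ugt8a and Wfdc2. Gene positions are from NCBIM37, where 21627 symbols matched by symbol and 52 by synonym. A percentage of shared windows is the share of a gene's 50-base exon windows that also occur in another gene. Some genes that the rule names are not reported here. The scripts were tested on simulated data.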

Additional observations from a re-analysis of the deposited data

How the results depend on the processing

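The number of calls depended on the test. DESeq2 called 46 genes higher and 8 lower where edgeR called 0 and 0, and with a mean RPKM over 1 in at least 1 group, an alternative chosen after seeing the data, DESeq2 called 45 and 8. A fit over all 31 libraries called 5 genes higher. The fit with the replicate block called 1 gene higher, and it changed no other call. Leaving out 1 library gave 0 to 19 genes higher and 0 lower, and the 19 came without treated mouse 2. With 1 library left out, unadjusted p values under 0.05 ranged from 151 (without treated mouse 1) to 1203 (without vehicle mouse 3) for higher genes and from 66 (without vehicle mouse 2) to 723 (without treated mouse 2) for lower genes. DESeq2's size factors, no filter, the 9 libraries of the CFA experiment, sample quality weights, robust estimation, an RPKM limit and no fold limit gave 0 calls in both directions with edgeR or limma. Over the genes with a printed fold change, no direction turned under any alternative. These genes were printed because their groups were separate or a test called them, so their direction could hardly turn. Of their values, 32 crossed to a call under an alternative other than leaving out a library and 6 when 1 library was left out. Of the list medians, 25 moved by at least the standard deviation of the list mean over the 3 vehicle mice under the former and 46 under the latter. A median could change sign without counting as moved. That of the neutrophil markers went from 0.30 to -0.23 without vehicle mouse 1 and was not among the 46. The cause of these differences was not tested. With 3 mice a group and libraries that stand apart in both groups, genes at a few counts per library are known only within a wide error.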

Other observations

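Keratinocyte and oral epithelium markers summed to 36.1, 18.3 and 169.7 CPM in the treated mice and 21.9, 17.6 and 57.3 CPM in the vehicle mice, with treated mouse 3 the highest. Proliferation genes had a mean log2(CPM + 0.5) of 1.69, 1.94 and 3.14 against 0.76, 1.03 and 3.44, high in treated mouse 3 and vehicle mouse 3, and their median log2 fold change was -0.11 (from -0.80 without treated mouse 3 to 2.11 without vehicle mouse 3, and above 0 without treated mouse 1, treated mouse 2 or vehicle mouse 3). The part of other tissues in these values was not tested.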
